A study of Rattus norvegicus with 311 samples.

Results

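The late sterol pathway turns squalene into cholesterol. Transcripts of its enzymes around Cyp51 were followed in primary rat liver cultures. The set was chosen by name and holds 9 genes (Sqle, Lss, Cyp51, Tm7sf2, Msmo1, Nsdhl, Hsd17b7, Sc5d and Dhcr7), and a row of the count table belonged to it when its name without the probe number was one of these symbols. Of the 22253 probes in the table, 8 met this rule, 1 for each gene except Sc5d, which was not analysed here. All 8 had enough counts to be tested on each day.

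Hepatocytes of male Sprague Dawley rats were bought freshly isolated from 1 supplier and kept on collagen, either alone (monoculture, 156 libraries) or with non-parenchymal liver cells (co-culture, 155 libraries). They received a compound or vehicle for the 24 h before collection on day 1, 3 or 7 after plating, where the labels call the vehicle wells untreated vehicle controls. The compounds were ketoconazole at 1, 10 and 30 µM, phenobarbital at 0.1, 1 and 10 mM, gemfibrozil at 10, 100 and 1000 µM and GW7647 at 0.01, 0.1 and 1 µM. These form 78 groups of 3 to 5 libraries, and the labels speak of biological replicates without tying them to separate animals, so a p-value here reflects how far these libraries scatter, and that scatter may be technical. Ketoconazole is an azole antifungal that blocks fungal Cyp51 and also inhibits mammalian cytochrome P450 enzymes. Phenobarbital activates the nuclear receptor CAR, gemfibrozil is a fibrate lipid-lowering drug, and GW7647 is a PPAR-alpha agonist.

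In this pathway squalene epoxidase (Sqle) makes the epoxide that lanosterol synthase (Lss) folds into lanosterol, the first sterol. Cyp51 then removes the 14-alpha methyl group, Tm7sf2 reduces the double bond that this leaves, Msmo1, Nsdhl and Hsd17b7 together take off the methyl groups at carbon 4, and Dhcr7 performs a last reduction to cholesterol. Most genes of the pathway, and those of the mevalonate arm before it, are targets of the transcription factor SREBP-2, which the Insig proteins hold back in the endoplasmic reticulum when sterols are plentiful. Liver is a main site of this synthesis.

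Promoters are shown for Cyp51, for Msmo1 and Hsd17b7, transcripts that rose with ketoconazole as Cyp51 did, and for Nsdhl, which acts in the same step but did not pass. Each line gives the 250 bases before the start that the promoter table uses, 5′ to 3′ on the gene's strand, from the RefSeq table of assembly GRCr8. For Nsdhl and Hsd17b7 that start lies inside the annotated gene body, so the last bases printed belong to the gene. The stretches lie at chr4:30991443-30991692 on the plus strand for Cyp51, chr16:29746863-29747112 on the plus strand for Msmo1, chr13:84722755-84723004 on the minus strand for Hsd17b7, and chrX:155817110-155817359 on the plus strand for Nsdhl. Capitals mark every match, on either strand, to the sterol regulatory element core TCACNCCA, to the NF-Y box CCAAT or to the GC box GGGCGG, and no matches overlap.
Cyp51: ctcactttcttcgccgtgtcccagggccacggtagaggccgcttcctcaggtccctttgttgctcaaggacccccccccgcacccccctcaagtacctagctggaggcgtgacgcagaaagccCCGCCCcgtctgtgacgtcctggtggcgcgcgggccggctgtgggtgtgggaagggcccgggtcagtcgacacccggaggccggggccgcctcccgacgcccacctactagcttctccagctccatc
Msmo1: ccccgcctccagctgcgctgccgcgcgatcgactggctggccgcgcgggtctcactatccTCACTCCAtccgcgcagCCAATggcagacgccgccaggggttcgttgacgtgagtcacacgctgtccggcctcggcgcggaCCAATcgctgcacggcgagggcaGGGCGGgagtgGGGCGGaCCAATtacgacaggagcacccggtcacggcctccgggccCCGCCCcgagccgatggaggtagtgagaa
Hsd17b7: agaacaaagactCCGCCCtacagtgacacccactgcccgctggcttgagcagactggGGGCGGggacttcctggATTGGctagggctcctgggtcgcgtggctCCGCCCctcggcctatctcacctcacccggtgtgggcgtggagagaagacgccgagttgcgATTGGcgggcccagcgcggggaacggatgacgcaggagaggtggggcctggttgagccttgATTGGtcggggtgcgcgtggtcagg
Nsdhl: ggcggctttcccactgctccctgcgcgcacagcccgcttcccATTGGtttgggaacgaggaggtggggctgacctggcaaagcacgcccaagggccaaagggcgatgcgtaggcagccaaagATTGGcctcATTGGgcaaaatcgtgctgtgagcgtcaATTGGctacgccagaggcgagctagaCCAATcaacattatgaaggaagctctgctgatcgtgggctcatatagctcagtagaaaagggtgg

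Of the 7 measured members with an entry in that table, 1 held the sterol element core within the window that runs to 50 bases after the start, namely Msmo1, 190 bases before it. That core was present in 3.89% of the 33469 promoters in the table. A CCAAT box was present in 5 of the 7 (Lss 1, Tm7sf2 2, Msmo1 3, Nsdhl 5 and Hsd17b7 3 matches) and in 37.5% of all promoters. A GC box was present in 6 of the 7, all but Nsdhl, and in 33.1% of all promoters. These matches describe letters and are not shown binding sites. Sqle was not in the table. The gene bodies annotated in GRCr8 span chr7:92758175-92773049 for Sqle, chr20:12090641-12118230 for Lss, chr4:30991693-31010147 for Cyp51, chr1:212785217-212789572 for Tm7sf2, chr16:29747113-29764360 for Msmo1, chrX:155817301-155848224 for Nsdhl, chr13:84702875-84722810 for Hsd17b7 and chr1:208444434-208460408 for Dhcr7.

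The libraries held 412414 to 12272575 counts (median 6054414), and 1 of them, monoculture with ketoconazole 30 µM on day 7 on plate 1, held under 1000000. Replicates are named by plate (1, 3, 5, 7 and, on day 3 only, 9), and the 9 libraries of plate 9 stood apart from the other day 3 libraries. They are described at the end, and some day 3 changes of Cyp51 and Sqle are also given without them. The other day 3 changes come from fits that include them. Of the 12 hepatocyte markers, 8 had counts in every library, with median levels from 110 CPM (Hpd) to 14523 CPM (Ttr), while Cps1, Tat, Cyp2c11 and Cyp2e1 had medians of 6.57, 6.68, 4.37 and 3.70 CPM and 0 counts in 8 to 15 libraries. Markers of non-parenchymal cells ranged from clearly detected, with median levels of 279 CPM for Tagln, 46.6 for C1qc, 33.99 for Sparc, 32.4 for Lyz2, 24.2 for Col3a1 and 22.5 for Cd163, to mostly absent. Lum, Stab2, Adgre1, Des, Vwf and Col1a1 had 0 counts in 298, 220, 208, 207, 187 and 186 of the 311 libraries. All levels below are CPM, counts per 1000000 counts of the library after scaling by TMM (a correction for library composition), changes are log2 fold changes ± their standard error, and a gene passed, rose or fell when its adjusted p (edgeR, Benjamini-Hochberg over all probes tested) was under 0.05. A probe's level depends on the probe, so levels of different genes are not compared. In a bulk library, fewer cells that express a gene and less RNA per cell cannot be told apart.

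In vehicle wells Cyp51 fell with time in monoculture and Msmo1 fell in co-culture. In monoculture, Cyp51 stood at 25.4, 51.4, 38.3 and 71.0 CPM on day 1 (plates 1, 3, 5 and 7, the order used throughout), at 34.7, 25.4, 35.3 and 25.0 CPM on day 3 and at 28.3, 28.9, 18.9 and 16.3 CPM on day 7. Plate 1 was the low library of day 1 and overlapped the later days. The means were 46.5 ± 19.5, 30.1 ± 5.67 and 23.1 ± 6.43 CPM (SD, n = 4 each). The change from day 1 to day 7 was -0.89 ± 0.32 (adjusted p 0.047), and it did not pass without plate 3 (-0.97, 0.114), 5 (-1.01, 0.128) or 7 (-0.59, 0.282). Co-culture Cyp51 had means of 59.9 ± 20.7, 33.1 ± 3.90 and 36.0 ± 9.27 CPM (SD, n = 4) on days 1, 3 and 7.

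Msmo1, the C4-methyl oxidase, stood in co-culture at 20.2, 32.4, 21.1 and 28.4 CPM on day 1 and at 5.26, 5.64, 6.42 and 5.87 CPM on day 7, with no overlap. Its change was -2.07 ± 0.57 (adjusted p 0.0117), and it did not pass without plate 3 (-1.93, 0.121) or 7 (-2.08, 0.0571). With plate as a block, Msmo1 in co-culture was also lower on day 3 than on day 1 (-1.69, adjusted p 0.0422, against -1.57 and 0.0795 without the block), where 13.7% of all probes passed with the block. In monoculture its means were 18.7 ± 2.53, 11.7 ± 3.65 and 7.89 ± 3.07 CPM (SD, n = 4). Hsd17b7, the 3-ketosteroid reductase, was lowest on day 3, at 11.5 ± 6.83, 2.62 ± 2.38 and 6.04 ± 2.10 CPM in monoculture and 8.10 ± 3.17, 1.79 ± 0.882 and 7.32 ± 4.89 CPM in co-culture (SD, n = 4), and no step of it passed (day 3 against day 1 -2.01 and -2.10, adjusted p 0.12 and 0.0679).

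The other members did not pass over time. Sqle lay between 2.32 and 4.24 CPM as group means, Lss between 2.41 and 4.90, and Tm7sf2 between 0.962 and 3.35 CPM. Nsdhl had group means of 29.4 to 46.8 CPM and Dhcr7 of 9.26 to 14.7 CPM. So 2 of 48 tests of a member over time passed, 8 had an unadjusted p under 0.05, and DESeq2 called 6. That unadjusted cut was met by 2078 (monoculture, day 3 against 1) to 4272 (monoculture, day 7 against 1) of 11823 probes. Of all probes, 2.52%, 22.4% and 15.7% passed in monoculture (day 3 against 1, 7 against 1 and 7 against 3) and 9.06%, 22.8% and 18.5% in co-culture. Between days 1 and 7 the 7 mesenchymal markers tested rose in both cultures, and 7 and 8 of the 12 hepatocyte markers fell in monoculture and co-culture. Their part in the members' levels was not tested.

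**Figure D1:**
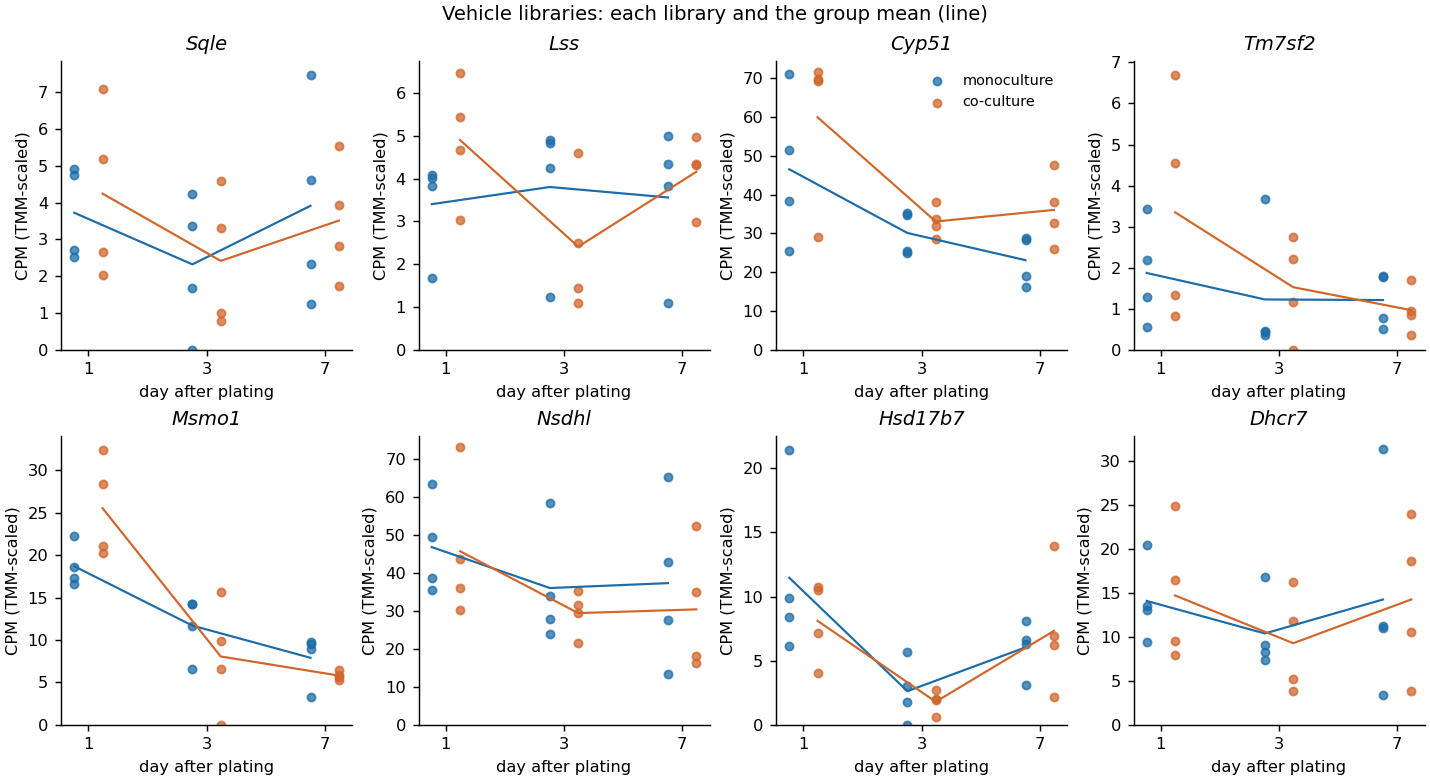
CPM of each member in vehicle wells on days 1, 3 and 7 in monoculture and co-culture, 1 point per library with group means. Monoculture Cyp51 means go from 46.5 to 23.1 CPM and co-culture Msmo1 means from 25.5 to 5.80 CPM between days 1 and 7, while the points of most other members overlap across days.

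No member passed between co-culture and monoculture in vehicle wells. Co-culture minus monoculture ran from -0.67 to 0.87 over the 8 members and 3 days, with 0 of 24 tests past the threshold, 0 at an unadjusted p under 0.05 and no call by DESeq2. Of all probes 0%, 0% and 0% passed on days 1, 3 and 7. For Cyp51 the difference was 0.39 ± 0.46, 0.13 ± 0.68 and 0.60 ± 0.60. The same test passed no endothelial marker. On day 7 all 8 tested were above 0 with a median of 2.10, while on day 1 the number was 4 of 8 with a median of -0.02. Members that did not pass are therefore not shown to be alike in the 2 cultures.

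On day 1, ketoconazole at 30 µM raised Cyp51, Sqle, Msmo1 and Hsd17b7 in monoculture and Cyp51 and Hsd17b7 in co-culture. Nsdhl and Dhcr7 did not pass in either. So 4 of 8 members rose in monoculture and 2 in co-culture, where 6.97% and 3.85% of all probes passed in either direction. The members' median changes were 1.95 and 1.40, against medians of 0.102 and -0.0154 over all probes. Ketoconazole doses share their vehicle libraries with each other and with the other compounds, so these comparisons are not independent.

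Upstream of Cyp51, Sqle, which makes the squalene epoxide, measured 2.51, 2.72, 4.92 and 4.75 CPM in monoculture vehicle and 5.99, 14.2, 91.6 and 9.59 CPM at 30 µM. Every treated library lay above every vehicle library, and plate 5 lay far above the other treated ones. The change was 3.05 ± 0.88 (adjusted p 0.0227), and without plate 5 it was 1.60 (0.635), without plate 3 3.05 (0.0703). In co-culture Sqle went from 2.02, 5.19, 7.10 and 2.67 CPM to 2.46, 20.3, 16.6 and 9.55 CPM, which overlapped on plate 1 (1.52 ± 0.84, adjusted p 0.38). Lss, which makes lanosterol, went from 1.67, 4.01, 3.83 and 4.09 to 7.83, 26.6, 18.4 and 12.1 CPM in monoculture without overlap, yet did not pass (2.27 ± 0.78, adjusted p 0.06). With plate as a block it did (2.24 ± 0.63, adjusted p 0.0121). In co-culture Lss stood at 4.66, 3.03, 5.44 and 6.47 CPM in vehicle and at 2.19, 31.8, 22.5 and 15.6 CPM at 30 µM (1.87 ± 0.77, adjusted p 0.18), where plate 1 alone was low.

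Cyp51 itself, the demethylase, measured 25.4, 51.4, 38.3 and 71.0 CPM in monoculture vehicle and 75.3, 301, 181 and 169 CPM at 30 µM. The groups did not overlap, and plate 1 was the lowest in both. The change was 1.98 ± 0.47 (adjusted p 0.00517). In co-culture it went from 29.0, 69.8, 71.7 and 69.3 CPM to 63.8, 253, 239 and 214 CPM, a change of 1.68 ± 0.47 (adjusted p 0.0228), where the plate 1 treated library fell among the vehicle libraries. With plate as a block the changes were 1.99 ± 0.28 and 1.64 (adjusted p 1.02e-06 and 3.75e-05). The main test lost the monoculture call without plate 3 (1.63, 0.0856) or 5 (1.90, 0.169) and the co-culture call without plate 3 (1.59, 0.152), 5 (1.67, 0.198) or 7 (1.71, 0.0669). The C14 reductase Tm7sf2, which acts on the product of Cyp51, went from 0.558, 1.29, 2.19 and 3.44 CPM to 2.99, 7.84, 11.4 and 3.44 CPM in monoculture and did not pass (1.81 ± 0.77, adjusted p 0.14). DESeq2 called it there, along with Lss and the 4 members that edgeR called.

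Among the enzymes that remove the C4 methyl groups, Msmo1 and Hsd17b7 moved and Nsdhl did not pass. Msmo1 went from 17.3, 18.6, 16.6 and 22.3 CPM to 24.4, 131, 38.4 and 87.9 CPM in monoculture (1.92 ± 0.55, adjusted p 0.0215), without overlap. Its call was lost without plate 3 (1.41, 0.125), 5 (2.08, 0.226) or 7 (1.90, 0.0507). In co-culture it went from 20.2, 32.4, 21.1 and 28.4 CPM to 4.93, 86.1, 84.2 and 72.4 CPM, where plate 1 was below every vehicle library and the other plates above them all (1.28 ± 0.54, adjusted p 0.2). Hsd17b7 went from 9.90, 6.15, 8.39 and 21.4 CPM to 11.7, 46.4, 85.2 and 41.6 CPM in monoculture (2.03 ± 0.62, adjusted p 0.0302) and from 4.05, 7.13, 10.8 and 10.5 CPM to 17.3, 40.0, 61.4 and 55.2 CPM in co-culture (2.42 ± 0.63, adjusted p 0.0149). Only the monoculture groups overlapped, on plate 1. Those calls were lost in monoculture without plate 3 (1.75, 0.098) or 5 (1.43, 0.545) and in co-culture without plate 1 (2.46, 0.0577), 5 (2.39, 0.146) or 7 (2.43, 0.0776). Nsdhl, the C4 decarboxylase, stood at 38.8, 49.5, 63.4 and 35.4 CPM in monoculture vehicle and at 16.8, 50.4, 22.3 and 22.8 CPM at 30 µM (-0.72 ± 0.36, adjusted p 0.22). It passed as lower only when plate 3 was left out (-1.18).

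Dhcr7, the 7-dehydrocholesterol reductase of the last step, stood at 9.34, 13.0, 20.4 and 13.4 CPM in monoculture vehicle and at 12.2, 26.1, 21.3 and 32.6 CPM at 30 µM (0.73 ± 0.65, adjusted p 0.56). Its co-culture libraries went from 7.90, 16.4, 24.8 and 9.52 to 5.48, 33.6, 20.9 and 29.9 CPM (0.61). Both pairs of groups overlapped.

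**Figure D2:**
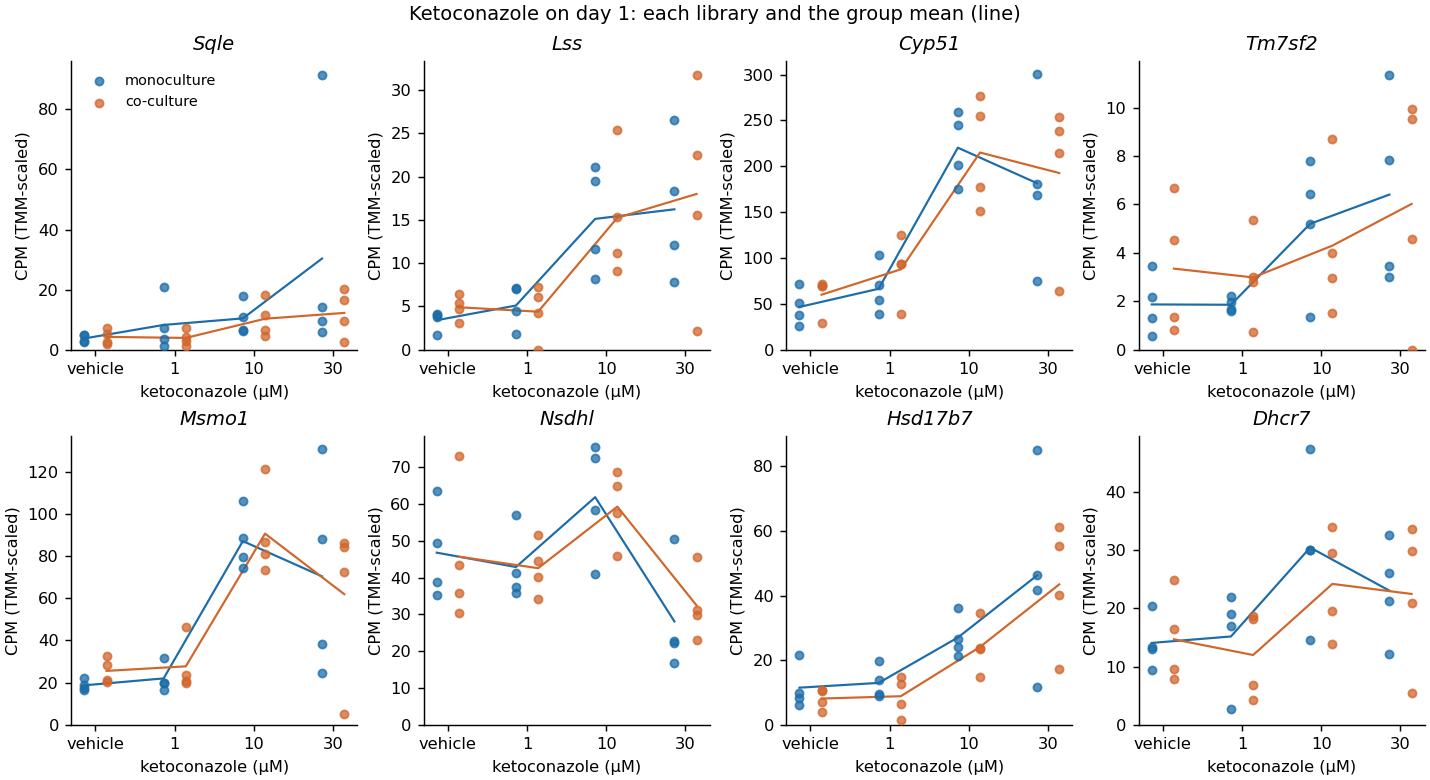
CPM of each member on day 1 at 0 (vehicle), 1, 10 and 30 µM ketoconazole in both cultures, 1 point per library with group means. Cyp51 and Msmo1 libraries at 10 µM lie above all vehicle libraries, the 30 µM points spread more widely with plate 1 low, and the mean of Nsdhl at 30 µM lies below that of vehicle in both cultures.

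At 10 µM on day 1 the Cyp51 and Msmo1 libraries were clear of vehicle and closer together than at 30 µM. Cyp51 measured 175, 259, 245 and 201 CPM in monoculture and 151, 254, 277 and 178 CPM in co-culture, group means of 220 ± 38.7 and 215 ± 60.3 CPM (SD, n = 4), against 181 ± 92.5 and 193 ± 87.4 CPM at 30 µM. Msmo1 measured 79.4, 106, 74.5 and 88.5 CPM and 81.2, 121, 86.8 and 73.3 CPM, all above every vehicle library. In the main test neither passed: Cyp51 changed by 2.26 ± 0.48 in monoculture (adjusted p 0.0645) and 1.84 in co-culture (0.775), and Msmo1 by 2.23 ± 0.56 (0.279) and 1.82. Cyp51 in monoculture passed without plate 1 (0.0178) or plate 7 (0.0481). Plate as a block gave Cyp51 2.39 ± 0.28 (adjusted p 1.05e-08) and 1.93 ± 0.28 (9.25e-06), and Msmo1 2.26 ± 0.48 (0.0248) in monoculture.

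In that blocked fit few other genes passed at 10 µM. It called 7 of 12504 probes in monoculture (0.056%) and 3 in co-culture (0.024%). In monoculture they were Cyp51, Msmo1, Acat2 (2.99), Idi1 (2.85), Fdft1 (1.69), Tspan13 (1.94) and Col5a3 (-2.68), and in co-culture Cyp51, Fdft1 (1.66) and Acat2 (2.54). Acat2, Idi1 and Fdft1 act in the mevalonate arm or make squalene from its product. DESeq2 called 11 probes there in monoculture, 2 of them members, and 15 in co-culture, 1 of them a member. Its calls included genes outside the pathway with very large changes, such as Eif2s3y (21.6) in monoculture and Derl1 (-18.2) in co-culture. These names were chosen after their values were seen. In the fit without the block, the 8 stress genes at 10 µM on day 1 had median log2 changes of 0.40 in monoculture and 0.28 in co-culture, with 8 and 7 above 0, and their summed level was 715 to 1497 CPM in monoculture and 611 to 1011 CPM in co-culture, against 634 to 1075 and 535 to 749 CPM in vehicle. Their part in the 10 µM result was not tested.

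Lss at 10 µM stood at 8.19, 19.5, 21.1 and 11.7 CPM in monoculture and 9.14, 15.3, 25.4 and 11.2 CPM in co-culture, all above the vehicle libraries. Hsd17b7 stood at 24.2, 21.2, 36.1 and 26.6 CPM in monoculture and 14.7, 23.5, 34.5 and 23.7 CPM in co-culture, where only 21.2 CPM on plate 3 of monoculture lay within the vehicle range. Sqle stood at 6.37, 17.8, 10.8 and 6.68 CPM and 6.59, 18.2, 11.6 and 4.70 CPM, and its co-culture groups overlapped. Nsdhl (75.5, 72.5, 58.4 and 41.0 CPM) and Dhcr7 (14.6, 29.9, 29.9 and 47.3 CPM) overlapped vehicle in monoculture.

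At 1 µM the median changes were smaller. Over the 6 combinations of culture and day, the median change of Cyp51 was 0.56 at 1 µM, 1.67 at 10 µM and 2.07 at 30 µM, and of Msmo1 0.20, 1.93 and 2.01. Hsd17b7 had medians of 0.30, 1.40 and 2.23, Lss of 0.51, 1.52 and 2.07, Sqle of 0.12, 1.38 and 1.91, and Tm7sf2 of 0.03, 1.42 and 1.85. Dhcr7 (-0.06, 0.66 and 0.78) and Nsdhl (-0.11, 0.28 and -0.24) had the smallest medians at 10 and 30 µM. Set against the vehicle library of the same plate, Cyp51 was higher in 20, 24 and 22 of 24 pairs at the rising doses, Msmo1 in 16, 24 and 22, and Nsdhl in 11, 17 and 10.

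Of 96 tests of a member at 1 or 10 µM, 0 passed in the main test, 21 had an unadjusted p under 0.05, DESeq2 called 3 and the block 3. At 10 µM that unadjusted cut was met by 230 of 12504 probes (co-culture, day 1) to 599 of 13707 (monoculture, day 7). At 1 µM it was met by at most 826 of 13439 (co-culture, day 3). Among all probes, 0% passed at 1 µM in each culture on each day (0%, 0%, 0%, 0%, 0% and 0%), and at 10 µM 0%, 0% and 0% passed in monoculture on days 1, 3 and 7 and 0%, 0% and 0.073% in co-culture. Tested directly, 30 µM exceeded 1 µM for Hsd17b7 in co-culture on day 1 (2.28 ± 0.62, adjusted p 0.0279), and this was 1 of 48 tests, with 18 at an unadjusted p under 0.05 and 5 calls by DESeq2. Across all probes 2.35%, 0.0595% and 0.175% passed in monoculture on days 1, 3 and 7 and 2.64%, 0.193% and 0% in co-culture. The unadjusted cut was met by 543 of 13707 probes (co-culture, day 7) to 1908 of 12504 (monoculture, day 1). The block called 10 of the 48, all higher at 30 µM, with Cyp51 at 1.46 and 1.13 on day 1, 1.74 and 1.68 on day 3 (monoculture and co-culture) and 1.96 in monoculture on day 7. The others were Hsd17b7 (1.81) and Msmo1 (1.72) in monoculture and Hsd17b7 and Lss (2.01) in co-culture on day 1, and Msmo1 in co-culture on day 3 (2.58). The block called 5.27%, 0.871% and 0.328% of all probes in monoculture on days 1, 3 and 7 and 5.49%, 2.52% and 0% in co-culture. Without plate 9, 30 µM also exceeded 1 µM for Cyp51 on day 3 by 1.73 (monoculture) and 1.67 (co-culture), where 0.162% and 0.67% of all probes passed.

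On day 3 the changes at 30 µM separated the Cyp51 libraries from vehicle, but no member passed with plate 9 in the fit. Cyp51 went from 34.7, 25.4, 35.3 and 25.0 CPM to 198, 138, 81.1 and 206 CPM in monoculture and from 31.8, 33.8, 38.0 and 28.6 to 151, 161, 123 and 166 CPM in co-culture, with no overlap in either. The changes were 2.39 ± 0.71 (adjusted p 0.195) and 2.16 ± 0.71 (0.317). Without plate 9, which holds neither vehicle nor ketoconazole, the same libraries gave 2.38 ± 0.38 (adjusted p 2.93e-04) and 2.18 ± 0.38 (7.45e-04), and the block gave 2.41 ± 0.36 (5.17e-06) and 2.17 ± 0.35 (5.17e-05). All probes past the threshold were 0.179% and 0.112% with plate 9 (monoculture and co-culture), 0.57% and 0.378% without it, and 2.71% and 2.07% with the block.

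Msmo1 and Hsd17b7 of the C4 step were also clear of vehicle on that day. Msmo1 went from 6.53, 14.3, 14.3 and 11.7 CPM to 43.3, 28.6, 21.3 and 56.5 CPM in monoculture and from 0, 9.89, 6.61 and 15.7 to 43.5, 20.8, 54.4 and 58.8 CPM in co-culture. Hsd17b7 went from 0, 1.78, 5.67 and 3.01 to 10.5, 10.3, 32.1 and 15.7 CPM and from 2.68, 1.92, 0.575 and 1.99 to 13.1, 6.48, 14.1 and 17.7 CPM. No group of these overlapped. The main changes did not pass (Msmo1 1.68 and 2.43 ± 0.71, adjusted p 0.206 for the second, and Hsd17b7 2.72 ± 0.97 and 2.81 ± 0.99, 0.291 and 0.388), whereas the block called Hsd17b7 in both cultures (2.80 ± 0.76 and 2.72 ± 0.78, adjusted p 0.0254 and 0.0434) and Msmo1 in co-culture (2.57 ± 0.66, 0.0216). Of the 8 members 0 and 0 passed in the main test. An unadjusted p under 0.05 was held by 4 and 4 of them, and by 1350 and 1222 of 13439 probes. DESeq2 called 0 and 1 of the members.

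On day 7, Cyp51 and Msmo1 rose in monoculture and no member passed in co-culture. The monoculture Cyp51 libraries went from 28.3, 28.9, 18.9 and 16.3 CPM to 0, 281, 120 and 130 CPM (2.58 ± 0.63, adjusted p 0.016), and Msmo1 from 8.97, 9.52, 3.32 and 9.76 to 0, 114, 23.8 and 45.1 CPM (2.60 ± 0.72, adjusted p 0.028). The treated library at 0 for both is the one with 412414 counts. Without it the changes were 2.98 ± 0.59 (adjusted p 0.0148) and 2.98 ± 0.70 (0.0356), and the number of probes past the threshold fell from 700 to 49. The Cyp51 call was lost without plate 3 (2.03, 0.221) or 5 (2.54, 0.132), and the Msmo1 call without plate 3 (1.73, 0.335), 5 (2.56, 0.128) or 7 (2.74, 0.0618). The block called 5 members, adding Lss (1.93, adjusted p 0.0222), Sqle (2.57, 0.0493) and Tm7sf2 (2.76, 0.0447) to Cyp51 (2.65, 0.00125) and Msmo1 (2.59).

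Co-culture libraries on day 7 went from 38.1, 32.5, 47.7 and 25.8 CPM to 36.9, 195, 116 and 84.6 CPM for Cyp51 (1.62) and from 5.26, 5.64, 6.42 and 5.87 to 12.5, 39.7, 24.9 and 19.6 CPM for Msmo1 (2.09), the second without overlap. All 8 adjusted p-values there were 1, with 4 of 8 members at an unadjusted p under 0.05 and 0 calls by DESeq2. Of all probes 5.11% passed in monoculture and 0% in co-culture on day 7. The unadjusted cut was met in co-culture by 141 of 13707 probes. With plate as a block 10.6% and 7.23% passed on day 1 and 11.9% and 0% on day 7.

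No test of a difference in response between cultures or days passed. The response to ketoconazole 30 µM in co-culture minus that in monoculture ran from -1.54 (Sqle, day 1) to 0.75 over members and days, with 0 of 24 past the threshold, 0 at an unadjusted p under 0.05, 0 by DESeq2 and a smallest adjusted p of 0.647. For Cyp51 it was -0.30 ± 0.64, -0.22 ± 0.96 and -0.96 ± 0.85 on days 1, 3 and 7. All probes past the threshold were 0%, 0% and 0.0219%. The response on day 3 or 7 minus that on day 1 ran from -2.08 ± 1.30 (Sqle, monoculture, day 3) to 1.17 ± 0.90 (Msmo1, co-culture, day 3), with 0 of 32 past the threshold, 0 at an unadjusted p under 0.05 and no call by DESeq2. Of all probes 0.00756% and 0.975% passed in monoculture (days 3 and 7) and 0.0227% and 0.0302% in co-culture. A test that did not pass does not show that the responses were alike.

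Genes that feed the pathway also rose at 30 µM. Of 8 enzymes of the mevalonate arm tested, 5 rose in monoculture on day 1, 5 in co-culture on day 1 and 4 in monoculture on day 7, none fell, and all 8 had changes above 0 in all 6 combinations. Hmgcs1, which makes HMG-CoA, rose by 2.21 ± 0.71 (adjusted p 0.041) on day 1 and by 2.56 ± 0.80 (0.045) on day 7 in monoculture. Idi1, the isopentenyl isomerase, rose by 2.20 ± 0.61, 1.96 ± 0.61 and 3.06 ± 0.81 in these 3 settings. Fdft1, squalene synthase, rose by 1.90 ± 0.37, 2.14 ± 0.37 and 1.66 ± 0.52 (adjusted p 6.6e-04, 2.4e-04 and 0.044). Medians over the arm were 1.99 and 2.05 on day 1, 1.73 and 1.30 on day 3 and 2.31 and 1.53 on day 7 (monoculture and co-culture). The day 7 monoculture values at 30 µM, here and below, include the library with 412414 counts and are not given without it.

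Of the 10 tested genes of SREBP regulation and sterol uptake, Insig1, the sterol-sensing anchor and itself a target of SREBP-2, rose in monoculture by 2.70 ± 0.62 on day 1 (adjusted p 0.0039) and 3.80 ± 1.02 on day 7 (0.024). The block also called it in co-culture on day 1 (1.86) and in both cultures on day 3 (3.87 and 4.33). Insig2 fell in co-culture on day 1 (-1.57 ± 0.43, adjusted p 0.023). Srebf2, which encodes SREBP-2, had changes of 0.08 to 0.94 and did not pass, and passed with the block in monoculture on day 7 (0.96).

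Of 5 tested genes that answer to oxysterols through LXR or export sterols, 1 passed, as Abcg1, a sterol exporter, fell by 3.38 and 3.10 on day 1 (monoculture and co-culture) and by 4.35 in monoculture on day 7. Of the 5, 1 to 3 had changes above 0 in each combination of culture and day, with medians from -0.90 to 0.66. Abca1 did not pass. Por, which passes electrons to Cyp51, had changes of -0.55 to 0.20 and did not pass, nor did Lbr, another late sterol enzyme, and Cyp7a1 was not tested.

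**Figure D3:**
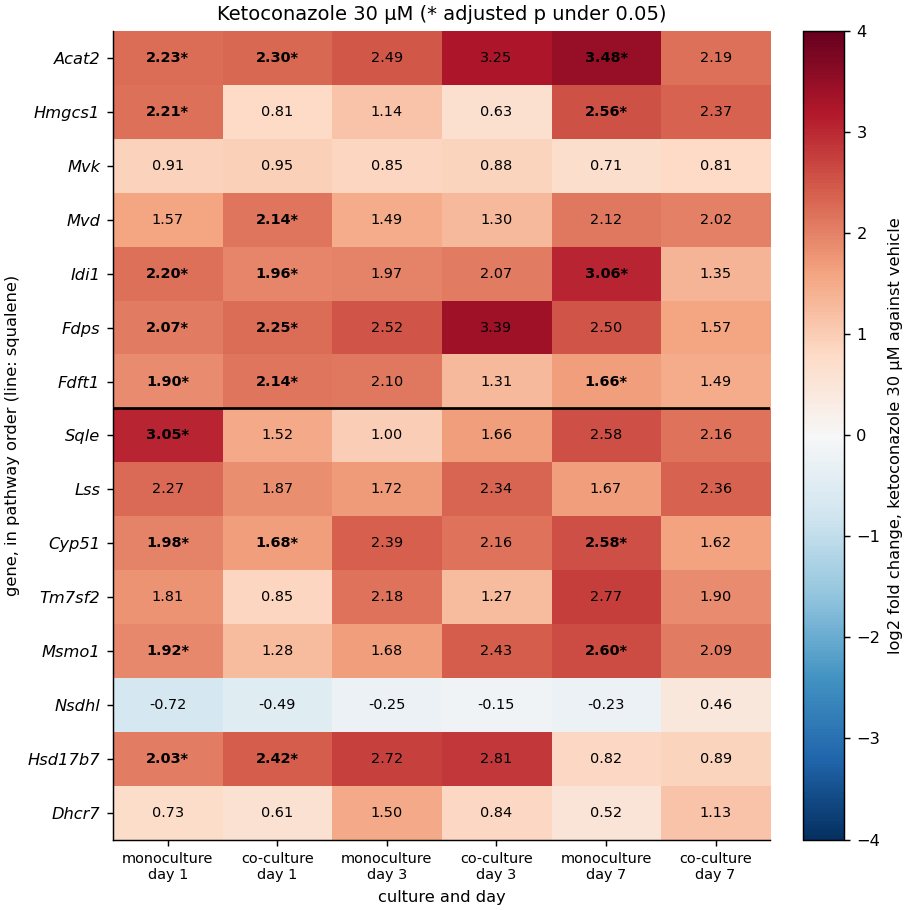
Log2 fold change (colour and number in each cell) at ketoconazole 30 µM against vehicle, with genes in pathway order down the vertical axis and the 6 combinations of culture and day along the horizontal axis. Stars mark an adjusted p under 0.05, every gene but Nsdhl is above 0 in all 6 columns, and Nsdhl runs from -0.72 to 0.46.

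Other gene groups moved in the same 30 µM wells. Of 8 stress genes, 4 rose on day 1 in each culture (Atf4 by 1.35 and 1.14, Ddit3 by 4.06 and 4.52, Trib3 by 1.97 and 2.09, Gdf15 by 2.22 and 2.87), and Gdf15 rose on day 7 in monoculture (2.26). Their summed level on day 1 was 1690 to 4864 CPM at 30 µM against 634 to 1075 CPM in vehicle in monoculture, and 2110 to 4709 against 535 to 749 CPM in co-culture. This was not particular to ketoconazole. On day 1, 5 and 6 of the 8 stress genes rose with phenobarbital 10 mM (monoculture and co-culture, medians 2.30 and 2.70). With gemfibrozil 1000 µM 4 and 4 rose (1.64 and 2.01), and with GW7647 1 µM 0 and 0 (-0.01 and -0.10). Of 12 hepatocyte markers, Tf fell in monoculture (-1.65) and Tf and Cps1 in co-culture (-1.84 and -2.85) on day 1. Their summed level was 9610 to 59613 CPM against 39948 to 58901 CPM in monoculture and 25837 to 61594 against 49173 to 94361 CPM in co-culture. Of the mesenchymal markers tested, Tagln fell in monoculture on day 1 (-2.88), and no macrophage or endothelial marker passed there. The part of these in the members' changes was not tested.

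The other compounds did not move a member past the threshold. At the top doses of phenobarbital (10 mM), gemfibrozil (1000 µM) and GW7647 (1 µM), 0 of 144 tests against vehicle passed (smallest adjusted p 0.109). An unadjusted p under 0.05 was held by 18, DESeq2 called 3 and the block 5. Over all probes, counts at that unadjusted cut ran from 191 of 13707 (GW7647, co-culture, day 7) to 3170 of 13439 (gemfibrozil, co-culture, day 3). All probes past the threshold for phenobarbital were 4.33%, 2.62% and 1.23% in monoculture on days 1, 3 and 7 and 2.81%, 3.28% and 0.0219% in co-culture. For gemfibrozil they were 3.06%, 0.908% and 0% in monoculture, against 2.18%, 1.08% and 0% in co-culture, and for GW7647 0.112%, 0.0967% and 0% against 0.12%, 0% and 0%.

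Cyp51 on day 1 stood at 23.7, 44.3, 75.1 and 74.2 CPM with phenobarbital in monoculture, at 26.4, 55.2, 44.1 and 82.6 CPM with gemfibrozil and at 31.4, 85.0, 81.2 and 86.0 CPM with GW7647. Each of these groups overlapped vehicle, and their libraries reached 86.0 CPM, against a range of 75.3 to 301 CPM with ketoconazole 30 µM. Over days 1 and 7 and both cultures its change ran from -0.02 to 0.87 with phenobarbital, -1.10 to 0.21 with gemfibrozil and -0.87 to 0.62 with GW7647. Hsd17b7 was higher with phenobarbital 10 mM than in vehicle in both cultures on day 3 (2.00 and 2.12), without passing. Its largest change with ketoconazole 30 µM was 2.8. Over days 1 and 7 Hsd17b7 changed by 0.17 to 1.26 with phenobarbital, -1.58 to 0.50 with gemfibrozil and -1.02 to -0.07 with GW7647.

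Msmo1 with GW7647 in co-culture on day 1 was low, at 6.41, 2.08, 6.86 and 10.2 CPM against 20.2 to 32.4 CPM in vehicle, without overlap. The change of -1.995 ± 0.56 did not pass (adjusted p 0.191), and it did with the block (-2.08, 0.0206, where 0.704% of all probes passed) and with DESeq2. Nsdhl with phenobarbital in monoculture stood at 18.0, 54.1, 10.5 and 9.84 CPM on day 1 against 35.4 to 63.4 CPM in vehicle (-0.97, adjusted p 0.114). With the block Nsdhl was lower with phenobarbital in monoculture on days 1 and 3 (-1.11 and -1.42, adjusted p 0.013 and 0.00358) and with gemfibrozil on the same days (-0.95 and -1.13, 0.0452 and 0.0113). Of all probes the block called 7.41% and 8.36% with phenobarbital and 6.09% and 5.39% with gemfibrozil on those days.

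Set directly against the other compounds at their top doses, ketoconazole 30 µM gave higher members. Of 144 such tests 19 passed, all higher with ketoconazole, with 71 at an unadjusted p under 0.05, 37 by DESeq2 and 46 with the block. Doses of different compounds are not equivalent, so these compare the wells as treated. Over all probes, counts at the unadjusted cut ran from 370 (co-culture, day 7) to 3301 (monoculture, day 7) of 13707, both against phenobarbital. In monoculture on day 1 Cyp51 exceeded phenobarbital by 1.72 ± 0.47 (adjusted p 0.0466), gemfibrozil by 1.79 (0.0249) and GW7647 by 1.37 (0.0476), and Msmo1 exceeded them by 2.24 ± 0.56 (0.0258), 2.11 (0.0266) and 2.13 (0.00871). Lss exceeded gemfibrozil by 2.93 (0.0347), and Sqle and Hsd17b7 exceeded GW7647 by 3.59 (0.00677) and 2.52 (0.00608).

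In co-culture on day 1, Cyp51 exceeded phenobarbital by 1.70 (0.0499) and gemfibrozil by 1.93 (0.0094), Lss and Msmo1 exceeded gemfibrozil by 2.84 (0.0301) and 2.61 (0.0028), and Msmo1 and Hsd17b7 exceeded GW7647 by 3.27 ± 0.59 (1.47e-04) and 2.48 (0.00871). Msmo1 against GW7647 there was the only one of the 19 to pass with each plate left out in turn (2.75 to 3.64). In monoculture on day 7 Cyp51 and Msmo1 exceeded gemfibrozil by 2.37 (0.0333) and 2.88 (0.0293) and GW7647 by 2.57 (0.0245) and 3.38 (0.00998). No member passed on day 3, or in co-culture on day 7. Without plate 9, day 3 Cyp51 exceeded phenobarbital, gemfibrozil and GW7647 by 2.05, 2.27 and 2.03 (monoculture) or 2.03, 2.42 and 1.72 (co-culture), each past the threshold. Of all probes 1.39%, 0.324% and 0.817% passed there in monoculture and 0.886%, 0.17% and 0.686% in co-culture.

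All probes past the threshold on days 1, 3 and 7 were, against phenobarbital, 0.92%, 0.536% and 2.7% in monoculture, against 0.904%, 0.26% and 0% in co-culture. Against gemfibrozil they were 1.62%, 0.275% and 2.1% in monoculture, against 2.88%, 0.149% and 0% in co-culture. Against GW7647 they were 8.91%, 0.997% and 1.6% in monoculture, against 6.05%, 0.484% and 0% in co-culture.

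The block added 27 calls to the 19. For Cyp51 it added all 6 comparisons of day 3 (1.82 to 2.39), those in co-culture with GW7647 on day 1 (1.11, adjusted p 0.0034) and with gemfibrozil and GW7647 on day 7 (2.73 and 2.54, 0.0364 and 0.0094), and that with phenobarbital in monoculture on day 7 (1.81, 0.0126). For Lss it added 8 (1.91 to 3.00) and for Sqle 4 (2.70 to 3.17). The remaining 5 were Tm7sf2 against gemfibrozil in monoculture on day 1 (2.62), Hsd17b7 against gemfibrozil in co-culture on day 1 (1.79), Msmo1 against phenobarbital in monoculture on day 7 (2.40), and, in monoculture on day 3, Nsdhl against phenobarbital (1.23, adjusted p 0.0294) and Dhcr7 against gemfibrozil (2.28, 0.0084).

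The shares of all probes called with the block on days 1, 3 and 7 were as follows. Against phenobarbital they were 2.15%, 2.39% and 9.94% in monoculture, and in co-culture 2.58%, 3.14% and 0.0146%. Against gemfibrozil they were 3.27%, 1.35% and 4.92%, and in co-culture 6.27%, 0.632% and 0.0073%. Against GW7647 they were 12.7%, 2.42% and 4.27%, and in co-culture 10.8%, 2.21% and 0.0657%. Cyp51 was the 1 probe of 13707 called against gemfibrozil in co-culture on day 7 and 1 of the 9 called there against GW7647.

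**Figure D4:**
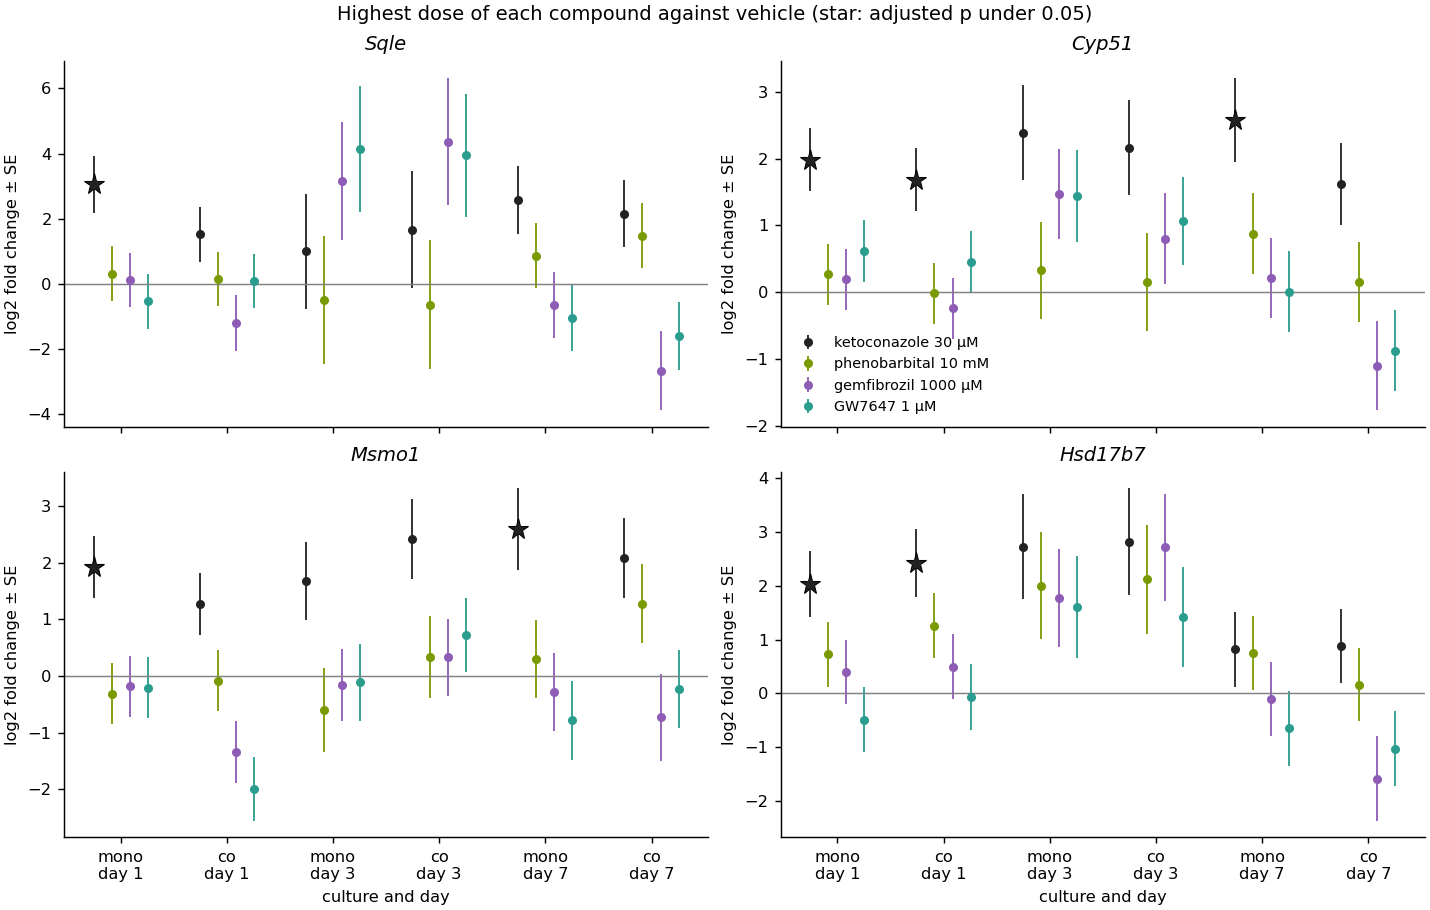
Log2 fold change ± standard error against vehicle at the top dose of each compound, for Sqle, Cyp51, Msmo1 and Hsd17b7, by culture and day along the horizontal axis. Stars, the points with an adjusted p under 0.05, are found for ketoconazole alone, and gemfibrozil and GW7647 stand at 3.16 to 4.37 for Sqle on day 3, where their groups include plate 9.

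Plate 9 held 9 day 3 libraries, with gemfibrozil or GW7647 and neither vehicle nor ketoconazole, with totals of 3221995 to 8111531 counts. Sqle there ran from 101 to 244 CPM, above every other day 3 library, with a median of 179 CPM against 2.32 CPM. Cyp51 ran from 138 to 287 CPM with a median of 179 against 37.6 CPM. The medians of Nsdhl were 82.5 against 31.9 CPM, of Lss 14.0 against 3.25, of Tm7sf2 7.997 against 0.914 and of Hsd17b7 16.04 against 4.10, whereas Dhcr7 (10.04 against 10.99 CPM) and Msmo1 (10.5 against 12.5 CPM) were not higher.

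Against the other libraries of the same group, plate 9 was higher in 9 of 9 groups for Sqle (median log2 difference 6.11, 5.49 to 8.10), Tm7sf2 (3.11), Cyp51 (2.54, 1.78 to 3.16), Lss (2.38), Hsd17b7 (1.86) and Nsdhl (1.17), in 6 for Msmo1 (0.13) and in 5 for Dhcr7 (0.06). Of 14824 probes 23.6% were higher in all 9 groups and 19% lower in all 9. A median at least that of Cyp51 was found in 11% of probes, and one at least that of Sqle in 0.836%. In the ketoconazole libraries of all days Sqle did not exceed 91.6 CPM. In the mevalonate arm 4 of 8 genes were higher in all 9 groups (Fdps 3.41, Fdft1 3.14, Acat2 2.87 and Idi1 2.14), while Mvd had a median of -0.41 and Mvk of -0.32, and Insig1 one of 3.48.

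The day 3 values of Sqle and Cyp51 with gemfibrozil and GW7647 rest largely on this plate. This does not hold for every member, as Msmo1 and Dhcr7 differed little there (median log2 differences 0.13 and 0.06). Hsd17b7 with gemfibrozil 1000 µM in co-culture had a mean of 7.40 CPM without plate 9 and stood at 23.6 CPM on it. Sqle at the top dose of gemfibrozil was 3.16 and 4.37 above vehicle (monoculture and co-culture) with plate 9 and -0.31 and 0.97 without it, and with GW7647 4.15 and 3.95 with it and 1.32 and 0.10 without. Cyp51 was 1.47 and 0.80 with gemfibrozil and 1.44 and 1.07 with GW7647, and 0.11, -0.24, 0.35 and 0.46 without plate 9. The summed mesenchymal markers on plate 9 ran from 739 to 2321 CPM, against a median of 406 and a highest value of 923 CPM in the other day 3 libraries, and the summed hepatocyte markers from 9014 to 30042 CPM against a median of 36066. With no vehicle on plate 9, the plate and the treatments cannot be told apart within it.

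**Figure D5:**
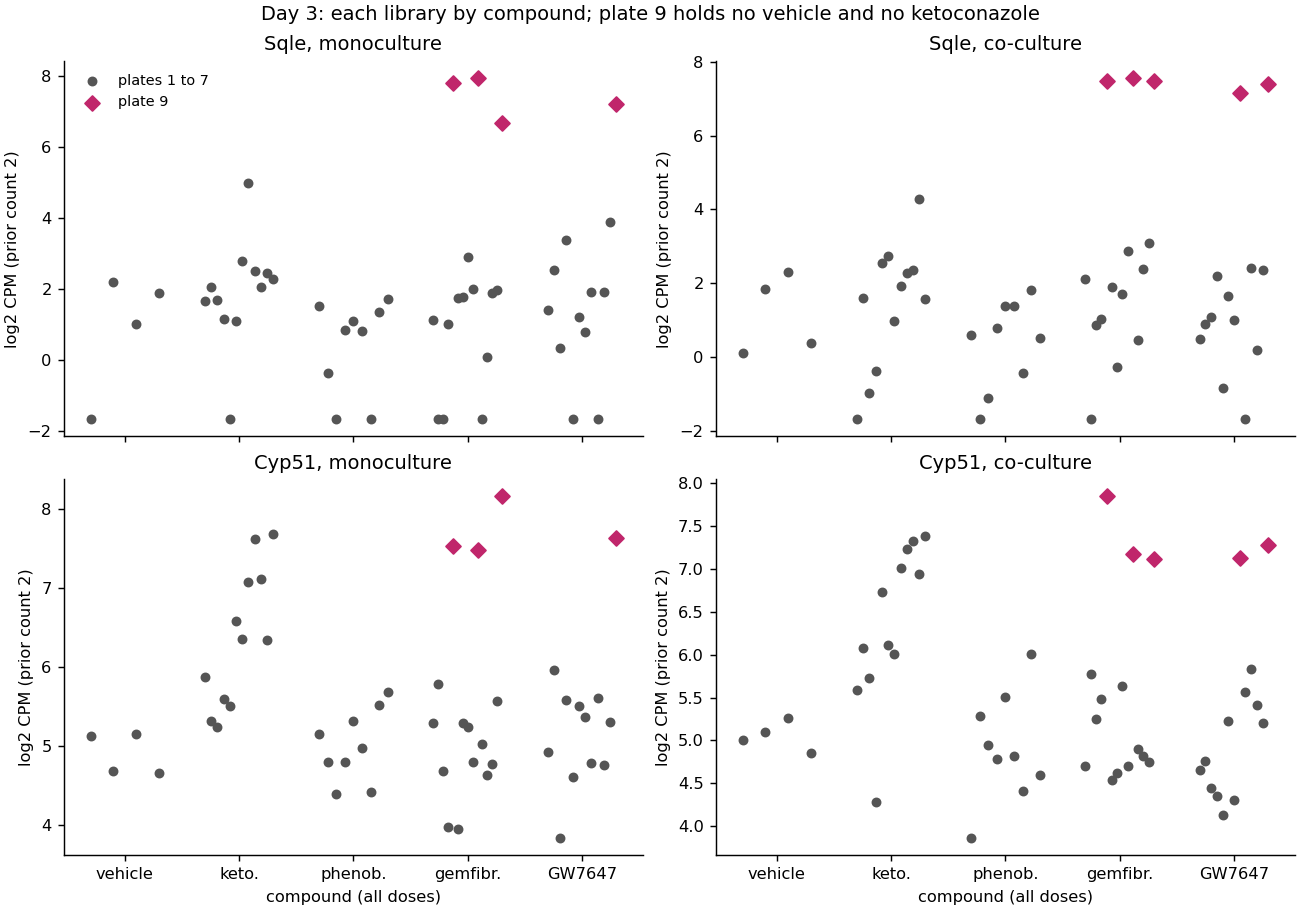
Log2 CPM (prior count 2) of Sqle and Cyp51 in each day 3 library by compound, all doses together and in order of dose within a compound, with plate 9 as diamonds and plates 1, 3, 5 and 7 as dots. All 9 diamonds lie above every dot for Sqle (101 to 244 CPM), and for Cyp51 (138 to 287 CPM) they lie in the upper range of the ketoconazole libraries or above it.

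Across the 78 group means of log2 CPM, Msmo1 followed Cyp51 most closely of 6925 probes with a mean of at least 10 CPM (Pearson r 0.881). Next came Fdps (0.840), Slc25a1 (0.817), Atp6ap2 (0.801), Insig1 (0.793), LOC1003615430.036 (0.792), Acat2 (0.792) and Actg11 (0.787). Fdps makes farnesyl diphosphate and Slc25a1 exports the citrate from which cytosolic acetyl-CoA is made. Dhcr7 (0.426) and Nsdhl (0.284) ranked 1518 and 2374, and the members with means under 10 CPM had r of 0.667 (Hsd17b7), 0.635 (Sqle), 0.609 (Tm7sf2) and 0.584 (Lss). These correlations describe groups that share plates, depth and the ketoconazole contrast, and the groups of day 3 include plate 9.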

How the data were processed

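Transcripts were measured with TempO-Seq, in which detector oligonucleotides ligated on a transcript are sequenced and counted, in 311 libraries in 78 groups of culture, compound, dose and day. The deposited table holds raw counts per probe, which the assay's supplier produced per the labels' protocols and the authors deposited, with no normalization. The submitters' processing notes name Bowtie, while its version is not given in the sources used here, nor are the probe list and the genome build. Of 22253 probes 237 had no count. No library was left out, and 0 columns lacked a sample.

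Some labels conflict. Monoculture has 33 libraries that are described as phenobarbital but carry ketoconazole as compound label, and these were grouped as phenobarbital, and 3 co-culture GW7647 libraries of day 3 were grouped under 0.1 µM by description although the dose label says 1 µM. Phenobarbital doses are in mM per the protocol, where the dose label says µM.

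Counts were tested in R 4.3.3 with edgeR 4.0.16 (TMM, filterByExpr with a minimum count of 10, quasi-likelihood F test, two-sided, standard error from the fold change and F, Benjamini-Hochberg over all probes, threshold 0.05). Each day was 1 fit of 26 groups (12504, 13439 and 13707 probes on days 1, 3 and 7), time in vehicle a fit of 6 groups, and the day difference of the response a fit of 24. Log2 CPM had a prior count of 2 added. The test was tried on simulated data. DESeq2 1.42.0, RLE scaling, no filter, groups compared alone, libraries with conflicting labels or under 1000000 counts left out, and each plate left out were alternatives. Counts of all probes called by DESeq2 are given only for ketoconazole 10 µM on day 1. Its other counts of members stand without that background.

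The replicate number is the plate in the library titles. Residuals were taken from group means. Their mean correlation within a plate was 0.197, 0.169 and 0.261 on days 1, 3 and 7, with plate 9 included on day 3. Each plate was above 0.1 (lowest 0.105, plate 9 0.814). Between plates it was -0.065, -0.0457 and -0.0866, values that largely follow from centring each group and add no separate evidence. Plate as a block is therefore given beside results it changes.

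All members are named, with the pathway genes of a fixed list, up to 3 called probes of each other list with the smallest adjusted p, and the probes most like Cyp51. Some genes of these lists are not reported here. Members, lists and tests were chosen with earlier results of these data known.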

Additional observations from a re-analysis of the deposited data

Results flagged for a closer look

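In groups of 4 or 5 libraries the highest or lowest library was compared with the rest by Dixon's criterion, in 168 combinations of a member with a vehicle group, a ketoconazole 30 µM group or a group that holds a plate 9 library. Groups with a plate 9 library were included, a plate that stands apart, and the members share libraries. The number marked is therefore not set against a chance rate. The criterion marked 40. Of these, 30 are plate 9 libraries of day 3, all high. For Sqle they are 222, 244, 101 and 147 CPM in monoculture (gemfibrozil 10, 100 and 1000 µM and GW7647 1 µM, which comes last in each list) and 179.09, 188, 178.84, 141 and 168 CPM in co-culture (gemfibrozil in the same order, then GW7647 0.1 and 1 µM). For Cyp51 they are 186, 178.79, 287 and 199 CPM and 230.05, 144, 138, 139.81 and 155 CPM in the same order. For Lss they are 17.2, 14.1 and 19.8 CPM with gemfibrozil in monoculture and 7.98 CPM with gemfibrozil 1000 µM in co-culture. For Tm7sf2 they are 9.60, 8.97 and 7.36 CPM with gemfibrozil in monoculture and 10.1 CPM at 1000 µM in co-culture. For Nsdhl they are 111 and 121 CPM with gemfibrozil 10 and 100 µM in monoculture and 83.6 CPM with 100 µM in co-culture, and for Hsd17b7 15.9 CPM with 100 µM in monoculture.

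The other 10 come from plates 1, 5 and 7. With ketoconazole 30 µM, Sqle stood far above its group at 91.6 CPM in monoculture on day 1 and at 19.1 CPM in co-culture on day 3, both on plate 5. In co-culture with that dose, Msmo1 was low at 4.93 CPM (day 1, plate 1), Lss low at 9.07 CPM (day 3, plate 7), Nsdhl low at 17.3 CPM (day 3, plate 5) and Dhcr7 high at 33.8 CPM (day 3, plate 7). In vehicle wells, Lss was low at 1.67 CPM and Cyp51 at 29.0 CPM on plate 1 of day 1 (monoculture and co-culture), Msmo1 low at 3.32 CPM on plate 5 of day 7 in monoculture, and Tm7sf2 high at 3.67 CPM on plate 1 of day 3 in monoculture.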

How the results depend on the processing

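Counts of members past the threshold moved with the setting as follows. For ketoconazole 1 and 10 µM, 0 became 3 with DESeq2, 3 with plate as a replicate block and 0 to 1 with a plate left out. At 30 µM on day 1, leaving out a plate gave 0 to 5 in monoculture (4 with all plates) and 0 to 1 in co-culture (2). On day 3, 0 and 0 became 2 and 3 with the block, 1 and 2 with the groups compared alone, 0 to 1 in each with a plate left out, and 1 with DESeq2 in co-culture. In monoculture on day 7, 2 became 5 with the block, 0 with the groups compared alone and 0 to 2 with a plate left out. For the other compounds 0 became 3 with DESeq2, 5 with the block, 1 alone and 0 to 2 with a plate left out. Ketoconazole 30 µM against those compounds gave 19, and 37 with DESeq2, 46 with the block and 2 to 25 with a plate left out. Against 1 µM it gave 1, and 5 with DESeq2, 10 with the block, 3 alone and 0 to 3 with a plate left out. Time in vehicle gave 2, and 1 without the filter, 6 with DESeq2 and 0 to 5 with a plate left out. Shares of all probes called with DESeq2, with the groups compared alone or with a plate left out are mostly not given here. A moved count of members therefore does not show a change particular to them. The cause was not tested. Of single values with a test, 731 kept their side of the threshold, 23 gained and 5 lost it and 9 moved, apart from plates left out (422, 7, 25 and 42), and none changed sign while past it. The block changed no call other than those given. Summing probes was not run, since every member has 1. Depth limits Tm7sf2 and Sqle most, with 0 counts in 31 and 24 of 311 libraries.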
